A study of Gasterosteus aculeatus with 79 samples.

Results

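The diencephalon of male threespined sticklebacks that held a nest was compared with that of control males without a nest. The comparison rested on 10 of the 79 libraries of the series, 5 from nest males and 5 from control males, chosen by brain region, condition and clock time as the labels give them. Nest males had built a nest and had not yet mated. Control males were reproductively mature and had no nest. Both groups were wild-caught adults from 1 creek, were housed under the same light cycle and temperature, and were sampled at 9 in the morning. The series as a whole followed 40 males in 8 groups of 5, namely nest-holding males, egg-holding males, males whose eggs were at an early, middle or late point of hatching, and control males of 9 a.m., 1 p.m. and 5 p.m. Each male gave a diencephalon and a telencephalon library of messenger RNA, except that the diencephalon of 1 control male of 1 p.m. was not analysed here. Males are named by the numbers in the labels, which are 33, 54, 70, 78 and 82 for nest males and 7, 39, 41, 69 and 74 for control males. Each library is 1 male, so the spread between libraries includes the spread between animals.

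In this species the male alone builds the nest, courts females to it, and then fans and guards the eggs and fry. The diencephalon holds the hypothalamus and the thalamus. The hypothalamus ties reproductive hormones, feeding and the day cycle to social behaviour, partly through neuropeptides and through the pituitary below it. The nest stage therefore measures the brain of a male that owns a nest before any egg is present.

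Counts on genes ranged between 17333452 and 22782480 in the 10 libraries, and between 16025932 and 37371744 over the 39 diencephalon libraries. Reads that aligned outside annotated genes made up 49.82% ± 1.74 of reads assigned inside or outside genes in nest males and 47.76% ± 2.095 in control males (SD, n = 5 each). The difference of 2.07 percentage points had p = 0.127 in a two-sided exact permutation test. The library names place each nest library in a single sequencing lane and every control library of 9 a.m. in a merged set of lanes, with different first index sequences in the 2 groups. Lane and index therefore cannot be told apart from the presence of a nest. None of the marker genes listed for diencephalon or telencephalon neurons could be matched to an identifier, so the labelled region could not be checked against its own neurons. Only 681 of the 22456 genes in the files could be given a symbol, and a gene without one is given by its Ensembl identifier. The symbols come from tables in which the study lists genes it called changed in these and related samples, so every named gene and every gene list below was drawn from genes already reported as changed in some comparison, and their signs are not independent evidence.

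Nest and control males differed in 10 genes at an adjusted p under 0.01, which is 0.0537% of the 18609 genes tested. Of these, 8 were higher in nest males (0.043% of genes tested) and 2 were lower (0.0107%). At an adjusted p under 0.05 there were 76 genes (0.408%), 55 of them higher (0.296%) and 21 lower (0.113%). Adjusted p-values are those of the edgeR quasi-likelihood test over all genes. Before adjustment, 2883 genes (15.5%) had p under 0.05, of which 1503 (8.08%) were higher and 1380 (7.42%) lower in nest males. The median log2 fold change, nest over control, was -0.0026 over all genes tested. The changes that passed 0.05 were mostly moderate, with a median of 0.50 and a range of 0.33 to 1.74 on the log2 scale for the 55 higher genes, and a median of -0.68 for the 21 lower genes. In whole tissue, a change in the number of cells of a type and a change in RNA per cell cannot be told apart.

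**Figure D1:**
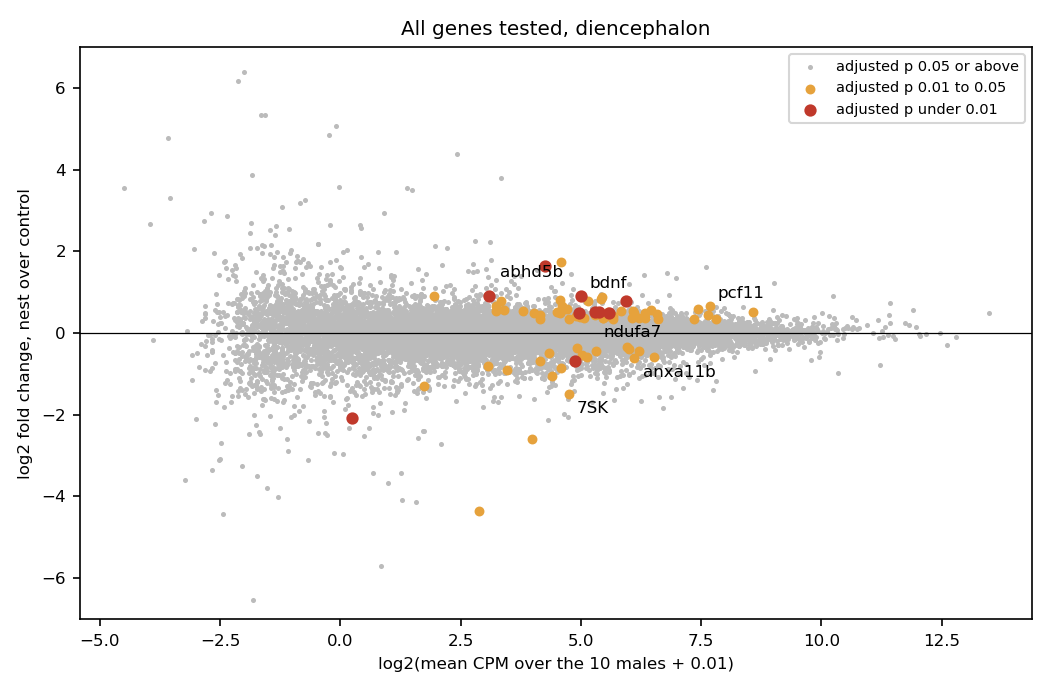
Log2 fold change of nest over control males against the log2 of mean expression in normalised counts (CPM, with 0.01 added), 1 point per gene tested in the diencephalon. Red points are the 10 genes with adjusted p under 0.01, orange points the other genes under 0.05, and grey points the rest; named genes above the zero line were higher in nest males.

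The genes higher in nest males included bdnf, brain-derived neurotrophic factor, a secreted growth factor that supports neuron survival and synaptic plasticity. Its level was 49.5, 24.1, 38.7, 53.2 and 42.9 CPM, the TMM-normalised count scaled to a fixed library total, in nest males 33, 54, 70, 78 and 82, against 23.5, 21.2, 28.7, 18.9 and 19.3 CPM in control males 7, 39, 41, 69 and 74. Of the nest males, 4 were above every control male, while male 54 lay inside the control range, so the groups overlapped. The log2 fold change of bdnf was 0.90 ± 0.151 (SE), with an adjusted p of 0.00391. Leaving out each male in turn gave log2 fold changes of 0.80 to 1.04 and adjusted p-values of up to 0.0223. In the other alternative fits its adjusted p was up to 0.116. Of all 20 alternative fits, bdnf passed 0.01 in 13 and 0.05 in 19.

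The second named gene was abhd5b, a fish copy of ABHD5, which in mammals co-activates the lipase that breaks down fat in lipid droplets. Nest males had 12.0, 12.7, 9.17, 9.57 and 12.1 CPM of abhd5b, against 5.88, 4.99, 5.54, 6.41 and 6.83 CPM in control males. Every nest male was above every control male. The log2 fold change was 0.90 ± 0.163 (SE), with an adjusted p of 0.00625. Leaving out each male in turn gave abhd5b adjusted p-values of up to 0.0358, and the other alternative fits up to 0.0512. It passed 0.01 in 9 of the 20 fits and 0.05 in 19.

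The other 6 higher genes have no symbol here, and they were higher by similar steps except for 1 larger change. ENSGACG00000002487 had 23.9, 29.9, 30.9, 25.4 and 35.1 CPM in nest males, against 11.7, 11.5, 7.42, 7.56 and 8.10 CPM in control males, a log2 fold change of 1.65 ± 0.285 (SE) and an adjusted p of 0.0041. The lowest nest male, male 33, was well above the highest control, male 7. ENSGACG00000016537 had 83.5, 58.9, 72.6, 91.8 and 82.2 CPM in nest males, against 39.4, 46.9, 42.2, 48.9 and 49.0 CPM in control males, a log2 fold change of 0.78 with an adjusted p of 0.00378. ENSGACG00000006480 had the smallest p of all genes. Its levels were 46.1, 45.5, 45.0, 45.9 and 46.6 CPM in nest males, against 34.5, 32.3, 34.1, 28.8 and 31.5 CPM in control males. This gene varied very little among nest males (SD 0.62 CPM), and its log2 fold change of 0.51 had an adjusted p of 3.43e-04. ENSGACG00000005116, ENSGACG00000009047 and ENSGACG00000014375 had log2 fold changes of 0.52, 0.49 and 0.49. In all 6 genes every nest male was above every control male.

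Both genes that were lower at 0.01 are also without a symbol. ENSGACG00000011990 had 21.3, 26.9, 21.4, 24.7 and 18.3 CPM in nest males, against 35.1, 31.8, 36.0, 40.3 and 37.7 CPM in control males, a log2 fold change of -0.68 ± 0.101 (SE) and an adjusted p of 7.2e-04. ENSGACG00000001492 was near the lower limit of measurement, at 0.117, 0.499, 0.497, 0.575 and 0.515 CPM in nest males, against 1.09, 2.74, 1.502, 2.08 and 2.11 CPM in control males. Its log2 fold change was -2.09 with an adjusted p of 0.00543. The groups did not overlap in either gene.

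**Figure D2:**
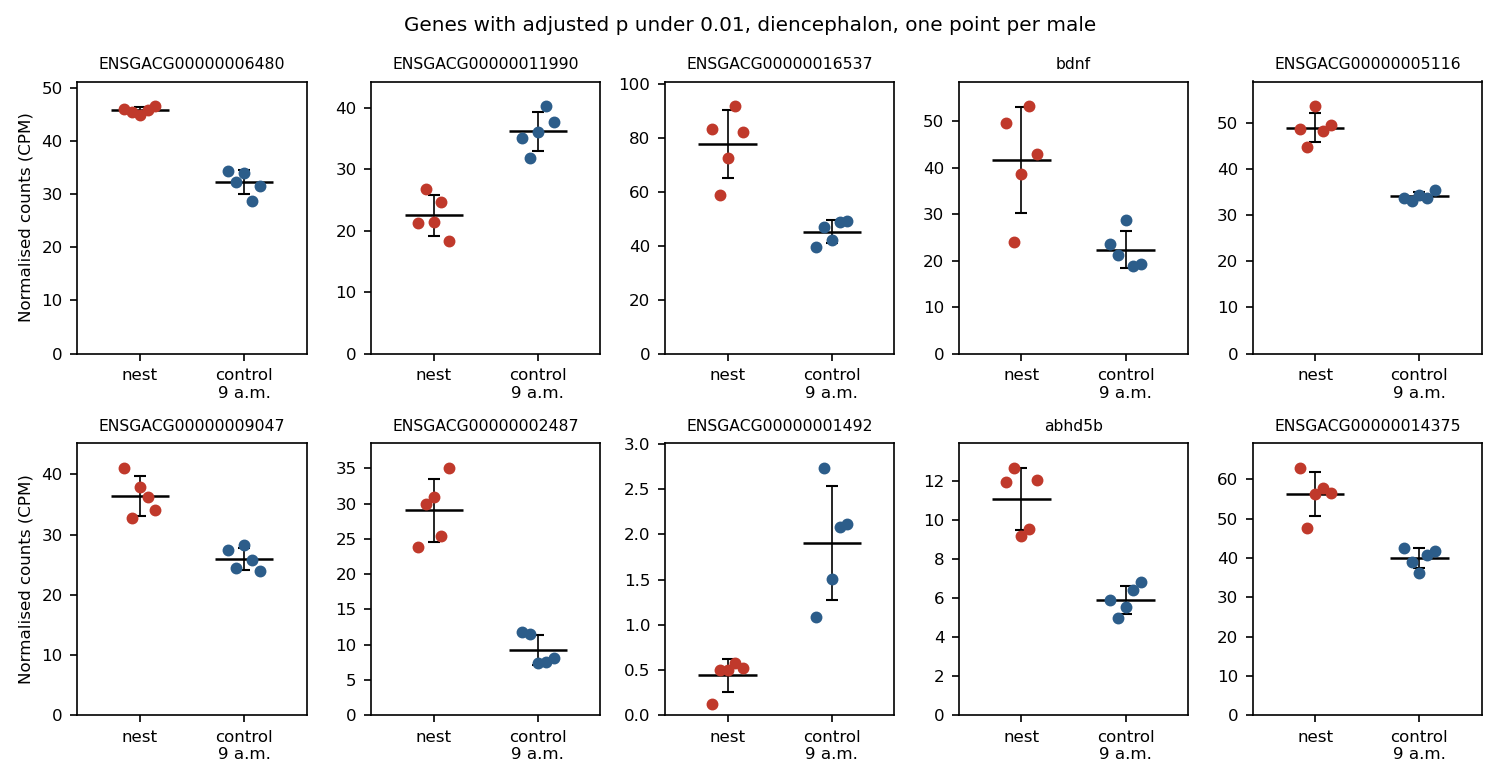
Normalised counts (CPM) of the 10 genes with adjusted p under 0.01, 1 point per male, nest males in red on the left and control males of 9 a.m. in blue on the right; bars give the mean and SD of 5 males. In 9 of the 10 genes the groups do not overlap, and in bdnf 1 nest male, at 24.1 CPM, lies within the controls.

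Among all genes tested, 544 (2.92%) had nest and control ranges that did not overlap, 299 of them higher (1.61%) and 245 lower (1.32%) in nest males. Of the genes called at 0.05, 37 of the 55 higher and 16 of the 21 lower genes did not overlap. These counts come from the values that chose the genes and are given as a description.

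Only 6 of the 76 genes at 0.05 have a symbol, so the functions of most of the 76 are not known here. The 6 have roles in gene expression, energy metabolism, membrane binding and neurotrophin signalling. No theme of the 76 can be drawn from them. The gene pcf11 codes for a subunit of the complex that cuts and polyadenylates the 3′ ends of messenger RNA. It reached 256, 281, 242, 199 and 275 CPM in nest males, against 164, 145, 154, 179 and 153 CPM in control males, with no overlap, a log2 fold change of 0.66 ± 0.133 (SE) and an adjusted p of 0.0217. The gene ndufa7 codes for a subunit of mitochondrial complex I, the first enzyme of the respiratory chain. It had 53.8, 36.8, 40.6, 49.8 and 45.0 CPM in nest males, against 34.5, 35.7, 35.1, 30.5 and 29.1 CPM in control males, a log2 fold change of 0.45 ± 0.105 (SE) and an adjusted p of 0.0409. The nest males were again all above the controls, with male 54 only just so.

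The lower genes with a symbol were anxa11b and 7SK. The gene anxa11b, an annexin that binds membranes in the presence of calcium, had 57.0, 62.1, 54.4, 53.6 and 46.8 CPM in nest males, against 72.5, 96.0, 94.9, 83.2 and 72.5 CPM in control males, a log2 fold change of -0.61 ± 0.144 (SE) and an adjusted p of 0.0477. Its groups did not overlap. 7SK is a small nuclear RNA that holds the transcription elongation factor P-TEFb in an inactive state. It had 9.97, 10.8, 18.3, 15.8 and 15.7 CPM in nest males, against 17.8, 36.5, 83.7, 31.8 and 28.4 CPM in control males, a log2 fold change of -1.49 and an adjusted p of 0.0478. Without control male 41, the highest of the 10, its log2 fold change was -1.02 with an adjusted p of 0.187. These 4 calls were close to the threshold. Leaving out 1 male took pcf11 past 0.05 for 5 of the 10 males (33, 82, 39, 41 and 74), with adjusted p-values of up to 0.0800. For ndufa7, anxa11b and 7SK it did so for 8 of the 10 males, all except nest male 54 and control male 7, with adjusted p-values of up to 0.171, 0.130 and 0.187. 7SK is a noncoding transcript of RNA polymerase III, and the libraries were made from polyadenylated RNA.

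Larger changes at 0.05 occurred in genes without a symbol. ENSGACG00000008836 had 39.4, 26.7, 39.1, 36.5 and 42.7 CPM in nest males, against 11.6, 7.64, 13.8, 18.2 and 4.18 CPM in control males, a log2 fold change of 1.74 with an adjusted p of 0.025. ENSGACG00000007727 had 6.98, 4.76, 3.26, 2.25 and 5.15 CPM in nest males, against 32.4, 51.8, 14.6, 9.70 and 27.0 CPM in control males, a log2 fold change of -2.60 with an adjusted p of 0.0478. Both genes separated the groups fully, and control males varied more than nest males in the second. Their calls were lost without 7 and 8 of the 10 males when each was left out, at adjusted p-values of up to 0.102 and 0.143. ENSGACG00000014008 had the largest fitted fall, -4.36, but its level was at most 1.03 CPM in nest males and in control males 7, 39 and 74. It was 37.8 and 30.6 CPM in control males 41 and 69, so that the fall rested on these 2 males. ENSGACG00000020192 (log2 fold change -1.31) and ENSGACG00000010842 (-1.04) were lower in every nest male than in every control male. Of the other genes between 0.01 and 0.05 with no overlap, the 8 largest rises had log2 fold changes of 0.58 to 0.90 and the 6 largest falls of -0.49 to -0.91.

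A further 4 named genes lay just short of the threshold, at adjusted p-values from 0.0753 to 0.0850; they were picked out after their values were seen. The gene adcyap1a codes for PACAP, a neuropeptide that raises cyclic AMP. It had 74.0, 45.2, 64.2, 63.3 and 66.7 CPM in nest males, against 47.8, 47.7, 51.5, 44.8 and 45.1 CPM in control males, a log2 fold change of 0.40. All nest males other than male 54 were above the controls. The polo-like kinase gene plk2b had a log2 fold change of 0.51, and taf13, a subunit of the general transcription factor TFIID, had one of 0.42. The copine gene cpne3 (1 of many), which codes for a calcium-dependent lipid-binding protein and is one of several similar copies, had a log2 fold change of -0.49 with no overlap between the groups.

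**Figure D3:**
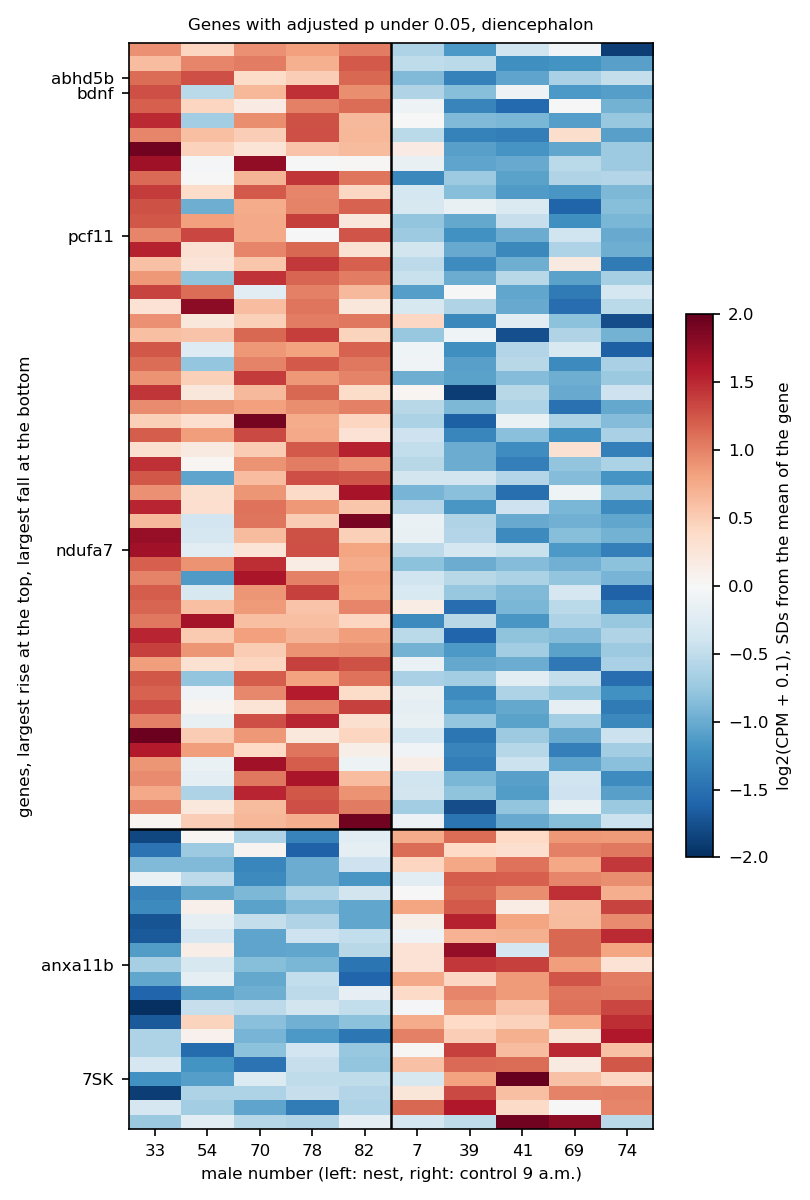
Levels of the 76 genes with adjusted p under 0.05 in each of the 10 males, as the distance from the mean of the gene in SDs of log2(CPM + 0.1), nest males left of the vertical line and control males right of it. Genes are ordered by log2 fold change, with the 55 higher genes above the horizontal line and the 21 lower genes below it; the column of nest male 54 is paler than those of the other nest males.

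The males did not contribute equally. Nest male 54 was the nest male nearest to the controls in 35 of the 55 higher genes and 9 of the 21 lower genes. Among controls, male 7 was the nearest to the nest males in 30 of the 55 and in 11 of the 21. Without male 54, 42 genes passed 0.01 (0.226% of genes tested), 34 higher and 8 lower, and 404 passed 0.05. Male 54 is singled out here after its values were seen, and leaving out the nest male nearest to the controls widens the difference by construction. Without control male 7, 11 genes passed 0.01 and 139 passed 0.05. Leaving out any other male left 2 to 7 genes at 0.01, with the lowest counts of 2 without nest male 33 and 2 without nest male 78. The counts were 3 without control male 39, 4 without control male 69, 5 without nest male 70 or control male 74, 6 without control male 41 and 7 without nest male 82. In each of these fits at least 9 of the 10 genes still passed 0.05. When reads outside genes were fitted as a covariate, 2 genes passed 0.01, and all 10 still passed 0.05. With only the 10 libraries in the fit, 1 gene passed 0.01 and 4 of the 10 passed 0.05, while DESeq2 called 75 genes at 0.01.

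The neuropeptide genes that could be named were few. Of 4 tested, adcyap1a and scg2a had an unadjusted p under 0.05 and were higher, and none of the 4 passed an adjusted p of 0.05. Over all genes tested 8.08% were higher at an unadjusted p under 0.05, and among genes with a symbol 51 of 652. The gene pomca, a hormone precursor that is also a pituitary marker, had a log2 fold change of -1.83 with an adjusted p of 0.636. The gene npy, neuropeptide Y, a regulator of feeding, had 12.8, 3.90, 9.12, 9.47 and 7.31 CPM in nest males, against 6.54, 11.6, 6.48, 6.75 and 6.34 CPM in control males, a log2 fold change of 0.17 with an adjusted p of 0.766. The groups overlapped, and the highest control, male 39, stood apart from the rest. Of 6 immediate early genes, which neurons switch on when they are active, none passed 0.05. The phosphatase gene dusp5 had a log2 fold change of 0.52 with an unadjusted p of 0.0118, fos had 0.28 and NR4A1 (1 of 2) had 0.33. The lowest value of the list, and the largest in absolute size, was -0.87 in atf3. That gene was at a low level, with means of 0.608 CPM in nest males and 1.11 CPM in control males. In all, 4 of the 6 were positive and 2 negative, with a median of 0.18. The 3 genes of steroid and cholesterol metabolism, hsd3b7, cyp46a2 and hsd17b3, had log2 fold changes of 0.52, 0.42 and 0.28, and none passed. Galanin, its receptor, oxytocin, vasotocin and the receptors for progesterone and oestrogen could not be matched to an identifier and were not analysed here.

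Most of the immune genes tested had negative and most of the matrix genes positive log2 fold changes, and none of them passed an adjusted p of 0.05. Of 16 genes of antigen presentation and the interferon response, 14 had a negative and 2 a positive log2 fold change, with a median of -0.47. Over all genes tested the median was -0.0026 and 9376 of 18609 were negative, and over the genes with a symbol 357 of 652 were. Of the 16, 3 had an unadjusted p under 0.05 and were lower, against 7.42% of all genes and 38 of the 652 with a symbol. The interferon regulatory factor gene irf1b had 26.2, 56.0, 39.2, 48.1 and 15.7 CPM in nest males, against 74.3, 101, 86.4, 70.1 and 108 CPM in control males. Its groups did not overlap, and its log2 fold change of -1.25 had an adjusted p of 0.298. All 8 proteasome genes were negative, with a median of -0.93. Of these 8, all except psma6l also count among the 16, so both lists describe largely the same genes. Of the 8, 5 are copies named psmb9a, a subunit of the immunoproteasome. How reads were shared among the copies was not tested, and their values are uncertain for that reason. In complement and innate immunity 7 of 9 genes were negative, with a median of -0.38 and no gene at an unadjusted p under 0.05.

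Among 20 genes of cell adhesion and extracellular matrix, 16 were positive with a median of 0.21, and 5 had an unadjusted p under 0.05 and were higher. Over all genes tested 9233 of 18609 were positive and 8.08% were higher at an unadjusted p under 0.05, and among genes with a symbol 295 and 51 of 652. They were col4a6 and col4a5, which code for chains of the collagen of basement membranes, together with matn4, itga3a and col6a1. In col4a6, nest males had 17.8, 21.0, 13.9, 18.5 and 53.3 CPM, against 14.8, 14.04, 13.6, 14.1 and 16.9 CPM in control males, a log2 fold change of 0.76 with an adjusted p of 0.110. Nest male 82 was far above the others, and without it the log2 fold change was 0.28. In col4a5, nest males had 35.5, 32.0, 29.5, 26.6 and 34.9 CPM, against 26.8, 21.0, 25.8, 22.8 and 24.1 CPM in control males, a log2 fold change of 0.40. Here 4 of the 5 nest males were above every control. In itga3a, nest male 70 had 60.8 CPM, against 21.9 to 31.7 CPM in the other nest males. Its log2 fold change was 0.53, and as low as 0.20 when 1 male was left out. The gene matn4 was at a low level, with means of 2.89 CPM in nest males and 1.27 CPM in control males. Of the 4 ribosomal protein genes, 3 were negative with a median of -0.07, and both tested genes of oxidative phosphorylation, ndufa7 and atp5s, were positive with a median of 0.36.

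Markers of other cell types were summed in each male. The 4 markers of microglia, the immune cells of the brain, summed to 105, 365, 287, 247 and 82.2 CPM in nest males, against 251, 649, 317, 394 and 458 CPM in control males, with none at 0. Their median log2 fold change was -0.997, all 4 were negative, and none had an unadjusted p under 0.05. This list shares irf8 with the interferon list, and mpeg1 and c1qc with the complement list, and its part in the negative values of the immune genes was not tested. The 8 pituitary markers summed to between 5.02 and 1412 CPM in nest males and to between 19.6 and 2306 CPM in control males, a wide spread in both groups, with 7 of the 8 negative and a median log2 fold change of -1.14. Of these, prl, the gene of the hormone prolactin, was at 0 in nest male 78 and at 311 CPM in nest male 54. The 15 photoreceptor and pineal markers summed to between 8.43 and 75.1 CPM in nest males and to between 7.09 and 112 CPM in control males, with 14 of the 15 negative and a median of -0.90. Their sum was above 17.6 CPM only in nest male 70 (75.1) and control males 7 (112) and 69 (57.4). The group means of this list thus rest largely on these males. No member of either list had an unadjusted p under 0.05. The fit with pituitary and photoreceptor scores as covariates called 13 genes at 0.01, and 9 of the 10 genes above were among them. The fit with a microglia score, added after the data were seen, called 11, and 7 of the 10 were among them. At 0.05 it called 32 genes, and 26 of the 76 were among them. Of the 5 oligodendrocyte markers, the myelin genes mag (log2 fold change -0.46) and plp1a (-0.30) had an unadjusted p under 0.05, and neither passed the adjusted test. At that unadjusted p, 7.42% of all genes and 38 of the 652 with a symbol were lower. The most abundant of the 5, mbpb, averaged 370 CPM in nest males and 310 CPM in control males (log2 fold change 0.25), and the median of the list was -0.09. The 5 markers summed to between 553 and 757 CPM in nest males and to between 542 and 715 CPM in control males. The lists for chaperones, lymphocytes, lysosome, muscle and meninges had 1, 4, 4, 8 and 1 genes tested, none with an unadjusted p under 0.05, and medians of -0.74, -0.23, -0.39, 0.51 and 0.89. No gene could be matched for receptors, monoamines, thyroid hormone, the circadian clock, glycolysis, synaptic vesicles, radial glia, endothelial cells or red blood cells.

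**Figure D4:**
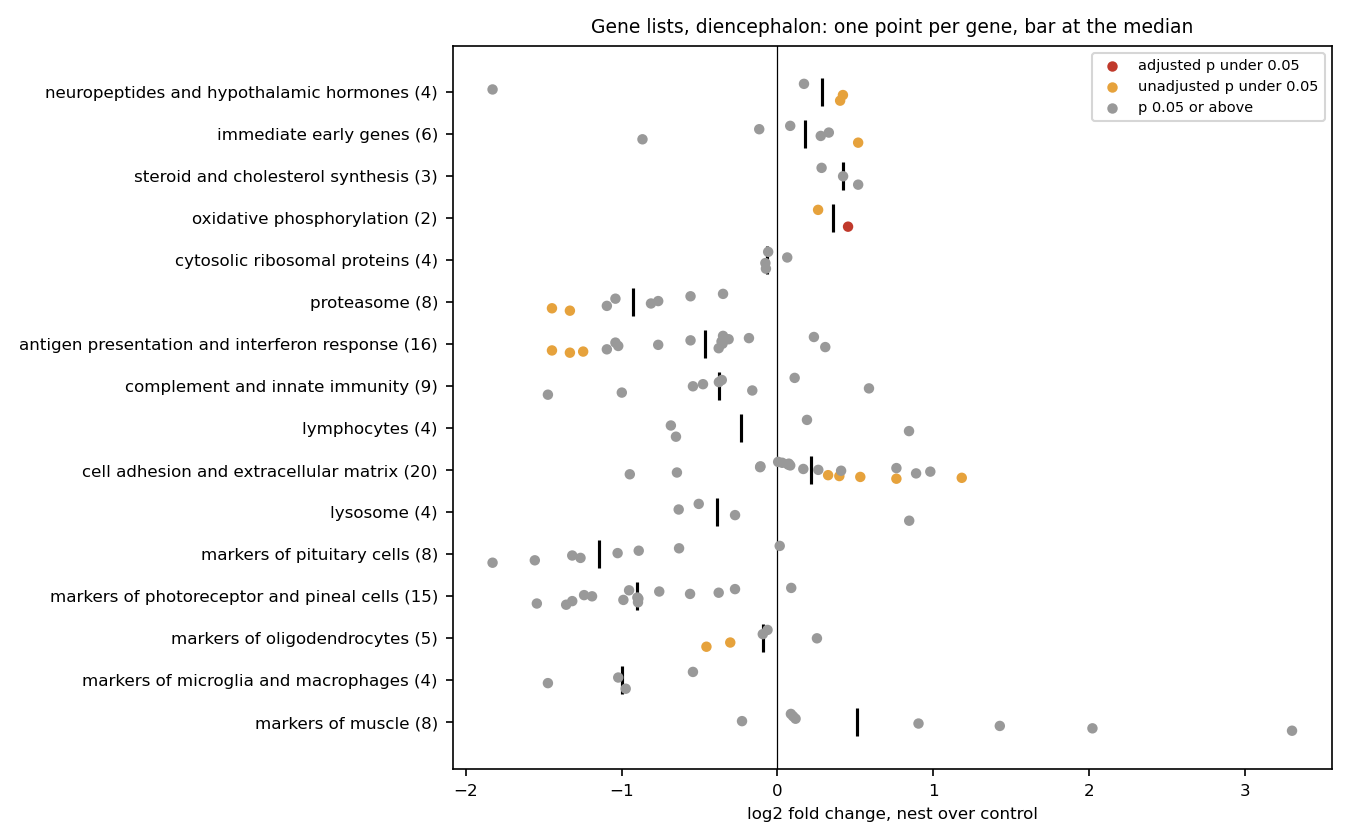
Log2 fold change of nest over control males for the genes of each list with 2 or more genes tested, 1 point per gene, with a bar at the median of the list and colours for the adjusted and unadjusted p. Proteasome, interferon, microglia, pituitary and photoreceptor genes lie mostly below zero, with medians of -0.93, -0.47, -0.997, -1.14 and -0.90, and matrix genes mostly above it, with a median of 0.21.

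Across the 8 groups, the nest group had the highest mean of all groups in 42 of the 55 higher genes and the lowest in 18 of the 21 lower genes. The control males of 9 a.m. lay at the other end in 26 and 12 of them. The genes were chosen on these 2 groups, so this is a description, and the share over all genes is not given. Against the 9 control males of the later clock times, nest males did not overlap in 23 of the 55 and 7 of the 21 genes. The share over all genes was not computed for these later controls, whose clock time also differed. That count is a description too, since the genes were chosen for their nest values. For bdnf, group means were 41.7 ± 11.3 CPM in nest males, 36.1 ± 6.23 in egg-holding males, 38.9 ± 1.49 at early hatching, 30.7 ± 3.54 at mid hatching, 31.0 ± 3.56 at late hatching, 22.3 ± 4.002 in controls of 9 a.m., 27.7 ± 3.25 in controls of 1 p.m. and 27.4 ± 4.84 in controls of 5 p.m. (SD, n = 5, and 4 for 1 p.m.). The nest mean was the highest, and its spread (mean ± SD) overlapped those of eggs and early hatching. For ENSGACG00000008836, group means were 36.9 ± 6.11 CPM in nest males, 12.1 ± 6.86 in egg-holding males and 13.8 ± 3.46 at early hatching, 11.1 ± 5.42 in controls of 9 a.m. and 20.9 ± 11.4 in controls of 1 p.m. For pcf11, the nest mean of 251 CPM stood above 200 CPM in egg-holding males and 188 CPM at early hatching, and 159 CPM in controls of 9 a.m.

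**Figure D5:**
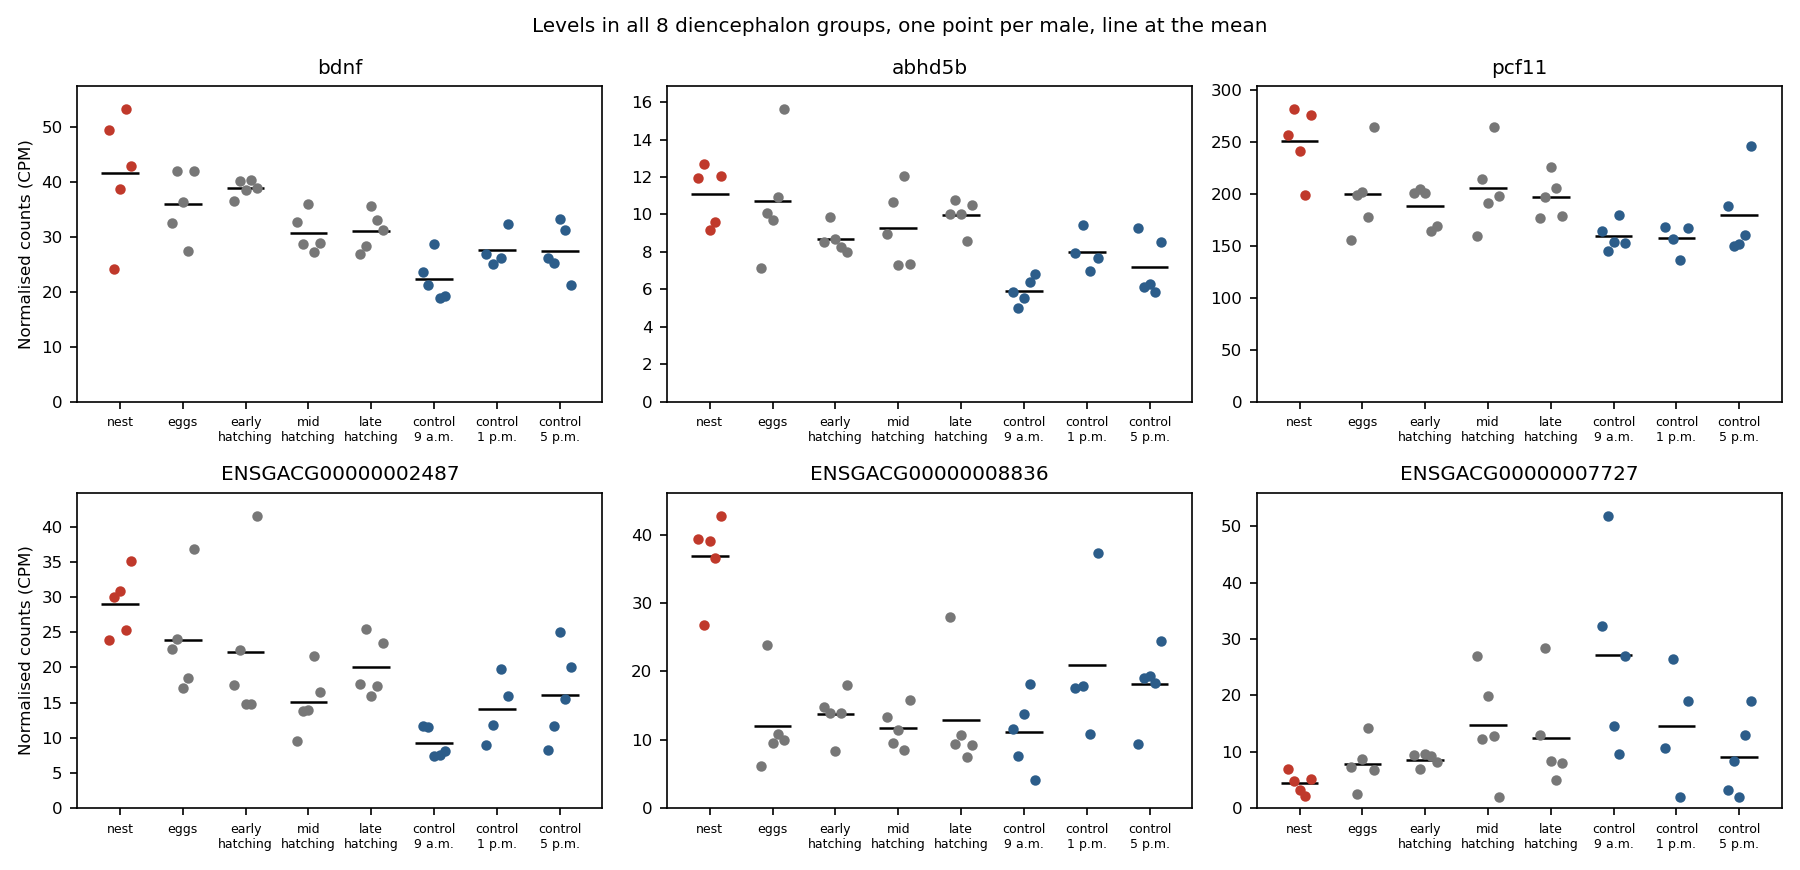
Normalised counts (CPM) of 6 genes in the diencephalon of all 8 groups, 1 point per male, with the stages in their order and the controls on the right; lines give the mean. In ENSGACG00000008836 the nest mean of 36.9 CPM is above all other groups. In bdnf the means of nest, eggs and early hatching are above that of the 9 a.m. controls, which share their clock time. Mid and late hatching males were sampled at later clock times, which have their own controls.

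Nest males were also set against the males of the next 2 stages, eggs and early hatching, which were sampled at the same clock time and do not involve the control males. No gene passed an adjusted p of 0.01 or 0.05 in the edgeR test (0% of 18609), and 937 (5.04%) had an unadjusted p under 0.05. DESeq2 called 0 genes at 0.01 and 4 at 0.05. For ENSGACG00000008836 the log2 difference, nest over the other 2 stages, was 1.51 with an adjusted p of 0.263, the smallest among the genes named here. For bdnf it was 0.15, for abhd5b 0.21, and for pcf11 0.37. The nest, eggs and early hatching comparisons with controls share the same control males. In the 55 higher genes the median log2 fold change was 0.50 for nest, 0.36 for eggs and 0.24 for early hatching. In the 21 lower genes it was -0.68, -0.41 and -0.37. Both sets were chosen on the nest change, so a nest median farther from zero was likely in advance. Whether the change fades over the stages cannot be read from these medians. All 55 and all 21 genes kept their sign in eggs and in early hatching against the shared control males. In eggs 16 of the 55 and 2 of the 21 passed an adjusted p of 0.05, and 0 did at early hatching. The share over all genes is not given for these counts. The genes were chosen in part on the values of the same control males. Kept signs and calls were therefore likely in advance, and whether the change persists cannot be read from them. For abhd5b the egg log2 fold change was 0.85 with an adjusted p of 0.0194, and for bdnf 0.69 with 0.0362.

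The telencephalon of the same males was measured as well. Its own fit called 2 genes at 0.01 (0.0109% of 18397) and 40 at 0.05 (0.217%). For bdnf, nest males had 84.3, 59.0, 63.7, 71.0 and 59.2 CPM in the telencephalon, against 44.4, 37.6, 46.5, 38.8 and 53.0 CPM in control males, a log2 fold change of 0.61 with an adjusted p of 0.0458. Here every nest male, male 54 included, was above every control. ENSGACG00000016537 averaged 672 CPM in nest males and 358 CPM in control males there, a log2 fold change of 0.91 with an adjusted p of 0.00277. The gene ndufa7 had a log2 fold change of 0.65 with an adjusted p of 0.0431. These genes were among only 5 of the 55 higher genes that passed 0.05 in the telencephalon, and 2 of the 21 lower genes passed. In contrast, pcf11 averaged 113 ± 8.78 CPM in nest males and 110 ± 9.68 CPM in control males in the telencephalon (SD, n = 5 each), and its log2 fold change there was 0.03. For abhd5b it was 0.30 with an adjusted p of 0.507. The median log2 fold change in the telencephalon was 0.29 over the 55 genes higher in the diencephalon and -0.53 over the 20 lower ones that were tested there. These genes were chosen on the diencephalon of the same males, and deviations of the 2 regions of a male were correlated. The medians and counts are therefore a description and not an independent repeat.

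Whether the nest change differed between the regions was tested directly in all 79 libraries. This first fit treated the 2 libraries of a male as independent. No gene passed 0.01 (0% of 18958), 1 passed 0.05 (0.00527%), and 1108 (5.84%) had an unadjusted p under 0.05 in the edgeR test. The gene at 0.05, ENSGACG00000016453, changed by 0.05 in the diencephalon and by -6.35 in the telencephalon on the log2 scale, and with the male as a block its adjusted p was 0.0598. For pcf11 the difference was 0.61 with an adjusted p of 0.588, and the unadjusted p was 0.00261. With the male as a block, which pairs the 2 regions of each animal, 2 genes passed 0.01, ENSGACG00000012168 and ENSGACG00000016886, and 3 passed 0.05. Only in ENSGACG00000016886 of these 2 was the diencephalon itself past 0.05. It had 31.0, 32.8, 33.5, 35.3 and 37.0 CPM in nest males, against 39.5, 48.4, 46.6, 51.2 and 44.9 CPM in control males, a log2 fold change of -0.44 with an adjusted p of 0.0217. Its telencephalon levels ranged between 40.5 and 56.1 CPM in nest males and between 36.8 and 50.9 CPM in control males, and the difference between regions was -0.60 with an adjusted p of 0.00308.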

How the data were processed

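Counts per gene and library were deposited by the authors, who per the labels made TruSeq Stranded mRNA libraries. The submitters' processing notes name CASAVA 1.8.2, TopHat2 2.0.8 and HTSeq 0.6.1, and the methods state alignment to a repeat-masked Ensembl genome. The deposited counts were whole numbers and not normalised. Rows that name no gene (reads outside genes, in more than 1 gene, or aligned in several places) were left out of library sizes; reads in more than 1 gene made up at most 0.0285%.

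A gene was tested if 5 or more of the 39 diencephalon libraries had 0.5 CPM or more (18609 of 22456). Counts were TMM-normalised and fitted over 8 groups in edgeR 4.0.16 (R 4.3.3), with glmQLFit and glmQLFTest, Benjamini-Hochberg adjustment and thresholds of 0.01 and 0.05. Values shown are TMM-normalised CPM. The code was tested on simulated data. Symbols for 681 genes came from the study's supplementary tables of genes it called changed, of which part was held here; the RefSeq table matched 0 identifiers, so no coordinates or sequences are given. No 2 libraries were identical.

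The regional comparison had the male as an alternative block. Same-numbered libraries come from 1 animal, and in 39 males their deviations from group means correlated at 0.144 or more (mean 0.504). Alternatives were RLE normalisation, no filter, DESeq2 1.42.0, a likelihood ratio test, fewer samples or other controls, covariates and leaving out each male; the microglia and pituitary covariates were chosen after seeing the data. The text names every gene under 0.01, the 10 largest rises and falls between 0.01 and 0.05 without overlap (in part given by range), and up to 4 genes per list. Members and lists were chosen with earlier results of these data known.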

Additional observations from a re-analysis of the deposited data

Results flagged for a closer look

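In 9 of 106 groups of 5 males tested, 1 male lay apart from the other 4 by more than Dixon's 95% limit, and chance gives about 1 group in 20. These groups did not cover every gene described above. Nest male 33 had 0.117 CPM of ENSGACG00000001492, against 0.497 to 0.575 CPM in the other nest males. Nest male 54 had 311 CPM of prl, against 0 to 56.4 CPM, and 75.2 CPM of stat3, against 61.6 to 64.4 CPM. Nest male 82 had 53.3 CPM of col4a6, against 13.9 to 21.0 CPM, nest male 70 had 60.8 CPM of itga3a, against 21.9 to 31.7 CPM, and nest male 78 had 141 CPM of col1a2, a fibroblast collagen, against 17 to 25.6 CPM. Among control males, male 41 had 83.7 CPM of 7SK, against 17.8 to 36.5 CPM. Control male 39 had 11.6 CPM of npy, against 6.34 to 6.75 CPM, and 43.9 CPM of psmb9a (4 of 5), against 18.3 to 21.9 CPM. The rule was not applied to some genes described above, so 9 of 106 is not a rate for all of them. Among genes outside the groups tested, nest male 33 had 3.753 CPM of ENSGACG00000008402, against 6.52 to 6.905 CPM in the other nest males. It also had 44.2 CPM of ENSGACG00000008217, against 24.6 to 27.9 CPM.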

How the results depend on the processing

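The 10 genes at 0.01 became 75 with DESeq2, 36 with the likelihood ratio test, 1 with only the 2 groups in the fit, 2 with reads outside genes as a covariate, 552 with control males of all 3 clock times (337 of them higher, with clock time differing between the groups) and 2 to 42 when a male was left out; at the threshold of 0.05 there were 76. At 0.05 the counts were 288, 149, 9, 14, 2406 and 12 to 404 in the same order. RLE normalisation, no filter and the pituitary and photoreceptor covariates gave 10, 10 and 13 genes, and the microglia and pituitary covariates added later gave 11 and 9; at 0.05 these gave 73, 54, 93, 32 and 65. All 76 genes kept their direction in each alternative, which was likely in advance since they were chosen on the same males. Between 6 of the 76 (only the 2 groups in the fit) and 76 (likelihood ratio test) were still called at 0.05. The regional difference gave 2 genes with the replicate block of the male, 1 with only the 20 libraries and 0 to 0 when a male was left out. Against eggs and early hatching, every alternative gave 0 genes at 0.01. The difference in reads outside genes was 1.26 to 2.69 points when a male was left out. The sign turned in npy without nest male 33 (-0.0222; 0.38 at most, without control male 39), in prl with the pituitary and photoreceptor covariates (0.22), with the pituitary covariate alone (0.24) and without control male 7 (0.0745; -2.79 at the other end, without nest male 54), and in col1a2 without nest male 78 (-0.26; 1.18 at most, without control male 69). It also turned with the microglia covariate in C2 (0.00612), irf8 (0.0838) and c1qc (0.33), in c1qc with reads outside genes (0.0522), and with control males of all clock times in mpx (-0.0735) and mbpb (-0.0271). None of these genes passed the test, and the cause was not tested. The genes irf8 and c1qc are members of the microglia score, and prl is a member of the pituitary score. With those covariates each was adjusted for a score that contains it, so their turned signs there cannot be read further. The smallest log2 change that passed 0.05 with 5 males a group was 0.33.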
